A study of Mus musculus with 7 samples.

Results

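The 9 genes described here are 5 lipocalins (Lcn2, Lcn5, Lcn8, Lcn9 and Lcn10), 2 cystatins (Cst8 and Cst11) and 2 members of the Adam family (Adam7 and Adam28), out of 30406 genes that could be compared across all samples of a study of mouse seminal vesicles at the level of single cells. They were chosen by their measured values, as genes abundant in the libraries of 1 young and 1 old mouse and rare in the other 21 mice, and by their detection in the same cells. Those contrasts are therefore given as a description with no test. RNA was captured from single cells in droplets, and each molecule was counted once by its UMI (unique molecular identifier). All 23 mice were wild-type males. The aging pool held 10 C57BL/6J mice, with 2 mice of 3 months, 2 of 20 months, 2 of 20 months given rapamycin, 2 of 28 months and 2 of 28 months given rapamycin. The diet pool held 8 FVB/NJ mice of 3 months, with 2 each on control diet, caloric restriction, high fat diet and low protein diet. A further 3 FVB/NJ mice of 3 months were sequenced as 1 library each on control, high fat and low protein diet. The last pair were FVB/NJ mice of 3 and 18 months, 1 library each, called the young and the old library below. With 1 mouse in each, age cannot be told apart from the individual, the dissection or the library, and strain, pool and age differ together between the pools.

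Lipocalins are small secreted proteins whose barrel-shaped fold carries hydrophobic molecules. Lcn2 binds bacterial siderophores and is made by many epithelia and by neutrophils, whereas Lcn5 (a retinoic acid-binding protein), Lcn8, Lcn9 and Lcn10 are known from the epididymis, the coiled duct in which sperm mature. Many cystatins inhibit cysteine proteases. Cst8 (also called CRES) and Cst11 belong to a subgroup of reproductive tract cystatins, and whether they inhibit such proteases was not measured here. Adam proteins are membrane-anchored proteins with a disintegrin and a metalloprotease domain, and Adam7 is known as an epididymal protein that is passed to sperm. Principal cells are the main secretory cells of the epididymal epithelium, and their genes are known to differ from one stretch of the duct to the next.

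In the GENCODE annotation of GRCm38, Lcn8 (chr2:25653120-25656217) and Lcn5 (chr2:25657952-25661977) are neighbours on the plus strand of chromosome 2, with 4832 bases between their starts and no other coding gene starting between them. Lcn10 (chr2:25682726-25686081, plus strand) follows after Lcn6, and Lcn9 (chr2:25823153-25825537, plus strand) lies 165 kb from the start of Lcn5. Lcn2 (chr2:32384633-32388252, minus strand) is 6730 kb away from Lcn5. The starts of Cst11 (chr2:148768609-148771497, minus strand) and Cst8 (chr2:148798785-148805595, plus strand) are 27.3 kb apart. Adam7 (chr14:68497336-68533741) and Adam28 (chr14:68606027-68655842) are both on the minus strand of chromosome 14, with starts 122 kb apart. All 9 genes are annotated as protein coding.

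Of the 9 genes, 6 had a promoter entry in RefSeq (GRCm38.p6), and the 250 bases before the RefSeq start of the 4 clustered lipocalins are shown because Lcn5 was highest in other cells than its neighbours, as described below. The windows are chr2:25652868-25653117 for Lcn8, chr2:25657702-25657951 for Lcn5, chr2:25682476-25682725 for Lcn10 and chr2:25822903-25823152 for Lcn9, all on the plus strand and written 5′ to 3′. Capitals mark TATAAA in Lcn5 and AGAACA in Lcn10 and Lcn9.
Lcn8: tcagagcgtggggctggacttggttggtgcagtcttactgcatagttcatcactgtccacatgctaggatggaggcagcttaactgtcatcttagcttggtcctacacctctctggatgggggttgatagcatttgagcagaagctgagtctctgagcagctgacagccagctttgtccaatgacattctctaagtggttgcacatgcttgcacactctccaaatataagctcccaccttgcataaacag
Lcn5: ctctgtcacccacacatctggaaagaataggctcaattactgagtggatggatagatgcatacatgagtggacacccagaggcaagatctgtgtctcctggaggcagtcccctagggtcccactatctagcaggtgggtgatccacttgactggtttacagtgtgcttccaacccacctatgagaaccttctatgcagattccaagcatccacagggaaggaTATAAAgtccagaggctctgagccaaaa
Lcn10: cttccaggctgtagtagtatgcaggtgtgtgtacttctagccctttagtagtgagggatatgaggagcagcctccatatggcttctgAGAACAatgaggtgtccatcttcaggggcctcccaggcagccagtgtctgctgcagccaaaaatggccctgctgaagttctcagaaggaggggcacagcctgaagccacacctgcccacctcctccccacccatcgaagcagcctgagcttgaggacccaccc
Lcn9: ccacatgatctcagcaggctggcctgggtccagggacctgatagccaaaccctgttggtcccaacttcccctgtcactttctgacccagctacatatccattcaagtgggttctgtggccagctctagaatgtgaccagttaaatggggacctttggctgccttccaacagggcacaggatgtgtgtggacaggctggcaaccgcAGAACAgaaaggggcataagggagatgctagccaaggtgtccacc
TATAAA was searched on the coding strand, and AGAACA (part of the site bound by the androgen receptor) and AGGAAG (the core of a site for ETS factors) on both strands. TATAAA began 28 bases before the start of Lcn5 and was not found in the windows of the other 5 genes. It was present in 7.59% of 32851 promoters of the same length, a set without repeated entries and without the promoters of a single chromosome. AGAACA began 45 bases before the start of Lcn9 and 163 bases before that of Lcn10, and 16.1% of the 32851 promoters held it. AGGAAG was present 3 times in the window of Lcn2, on the minus strand relative to the gene, and in 29.5% of the 32851 promoters. No matches overlapped, and the window of Lcn8 held no match to any of them.

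Both the young and the old library are labelled seminal vesicle, but they stood apart from the other 21 mice. Svs5, a major seminal vesicle secretory gene, was at 3.55 and 3.04 CPM (UMIs of the gene per 1e+06 UMIs), whereas the lowest of the remaining mice had 34607 CPM. The 7 seminal vesicle secretory markers together gave 11.04 and 6.07 CPM, against 78724 to 640227 CPM in the others. The 9 epididymis principal cell markers gave 51083 and 68220 CPM, against 1.15 to 617 CPM in the others. Gpx5, a glutathione peroxidase secreted by epididymal principal cells, was at 30504 and 44205 CPM. None of the 9 principal cell markers was at 0 in either library, nor over the other 21 mice together. The young library held 9164 cells and 24809486 UMIs and the old library 9113 cells and 36556306 UMIs, the aging pool between 1705964 and 14726866 UMIs per mouse, the diet pool between 971402 and 9808025, and the 3 diet single libraries between 35669837 and 46333394. Pairs of libraries shared 6 to 30 cell barcodes. In the values below, more RNA per cell cannot be told apart from more cells of the type that makes it, except where cells of a type were taken alone.

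All 9 genes were abundant in both libraries and, apart from Lcn2 and Adam28, close to absent elsewhere. Each lay above all 21 other mice in both libraries. Of all 15957 genes with at least 50 UMIs, 34.7% did so too, and the genes had been picked on this contrast, so nothing is read from the count. Counts are of 3′ ends, 1 per molecule, and were not divided by gene length when genes are set side by side.

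Lcn8 gave 69820 UMIs (2814 CPM) in the young library and 440404 UMIs (12047 CPM) in the old library, and 4 UMIs in 4 cells of 4 of the other 21 mice. Lcn9 gave 18592 UMIs (749 CPM) and 182057 UMIs (4980 CPM), and 1 UMI in all other mice together. Lcn10 gave 24886 UMIs (1003 CPM) and 55522 UMIs (1519 CPM), and no UMI among the 2.19309e+08 UMIs of the other mice. Lcn10 was thus the member with no trace outside the pair. Set against a floor of 3 counts over these 21 mice, it was at least 73328-fold higher in the young and at least 111029-fold higher in the old library. For Lcn9 the single UMI gave a ratio of 164348 in the young library, with a counting interval of 29494 to 6491740.

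Lcn5 gave 24045 UMIs (969 CPM) in the young library, 100946 UMIs (2761 CPM) in the old library and 6 UMIs over 5 other mice. The UMIs of Lcn5 were concentrated in few cells. The top 1% of cells held 75.6% of them in the young and 55.7% in the old library, with up to 1061 and 1467 UMIs in a cell. For Lcn10 the same share was 16.2% and 8.94%.

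Lcn2 was the exception among the lipocalins, with 127608 UMIs (5144 CPM) in the young library, 272534 UMIs (7455 CPM) in the old library and a clear level in all other mice. Its level was 93.8 to 351 CPM in the aging pool (median 146), 156 to 347 CPM in the diet pool (median 208) and 55.8, 56.6 and 55.9 CPM in the control, high fat and low protein single libraries. Over the 21 mice together it was 46.1-fold higher in the young and 66.8-fold higher in the old library.

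Of the cystatins, Cst11 gave 90779 UMIs (3659 CPM) in the young and 272952 UMIs (7467 CPM) in the old library, and 11 UMIs over 6 other mice, each in a cell of its own. Cst8 gave 9759 UMIs (393 CPM) and 55493 UMIs (1518 CPM), and 2 UMIs over 2 other mice. The ratio of Cst8 to the other mice was 43133 in the young library, with a counting interval of 11937 to 356216. Both cystatins were therefore near the limit of detection in the other mice, and their exact folds rest on very few molecules.

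Of the Adams, Adam7 gave 78998 UMIs (3184 CPM) in the young and 171226 UMIs (4684 CPM) in the old library. It gave 21 UMIs in 7 of the other mice, of which 12 came from 1 cell of a 20-month mouse. Adam28 gave 7004 UMIs (282 CPM) and 50810 UMIs (1390 CPM). It was also detected in 18 of the other 21 mice, at up to 5.59 CPM. Against UMIs summed over all 21 (164 UMIs, 0.748 CPM), it was 378-fold and 1859-fold higher in the young and old library. Deeper mice weigh more in that sum, and the 3 diet single libraries, the deepest of the 21, gave 1 of the 164 UMIs.

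Within the young library the order of levels was Lcn2, Cst11, Adam7, Lcn8, Lcn10, Lcn5, Lcn9, Cst8 and Adam28. Within the old library it was Lcn8, Cst11, Lcn2, Lcn9, Adam7, Lcn5, Lcn10, Cst8 and Adam28. The old library's Cst11 and Lcn2 (7467 and 7455 CPM) differed by less than their counting intervals, and so did its Lcn10 and Cst8 (1519 and 1518 CPM). The plot of levels by mouse shows these values.

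**Figure D1:**
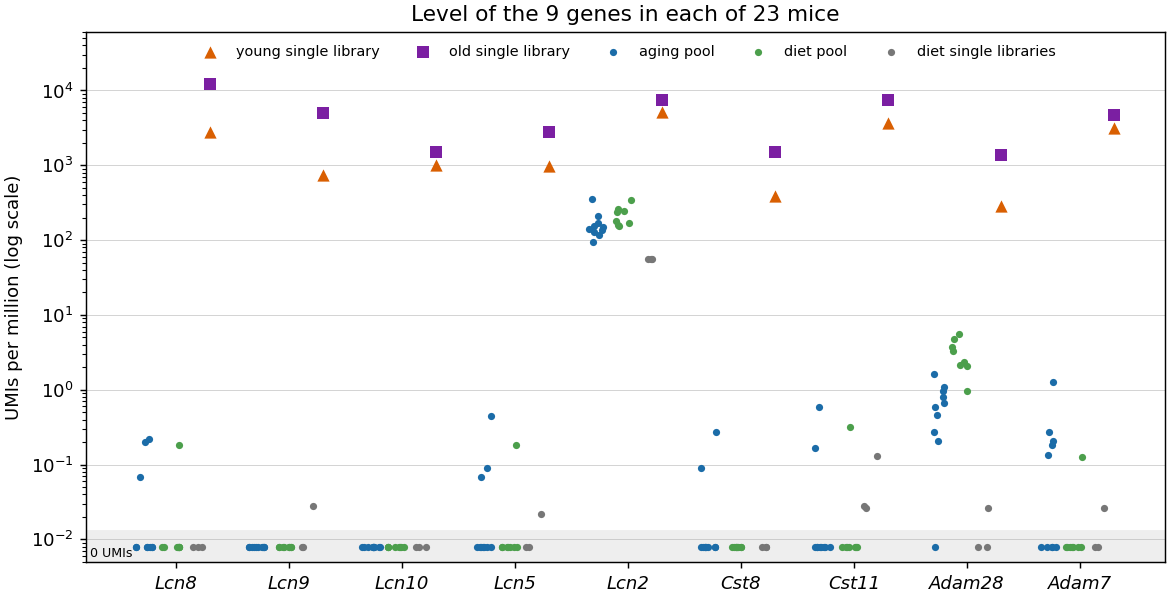
Level of each of the 9 genes in each mouse, in CPM on a log axis, with mice without a UMI drawn in the grey band. Lcn2 is the only member with a level above 55 CPM in every mouse, Adam28 is seen at 0 to 5.59 CPM in the pools, and Lcn10 has no UMI outside the young (triangle) and old (square) libraries.

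Within the pair of libraries, almost all UMIs of 8 of the 9 genes lay in principal-like cells. Cells were grouped without using the 9 genes, and 3 of 29 clusters were named principal-like from the 9 principal cell markers (Gpx5, Crisp1, Crisp4, Rnase9, Rnase10, Spag11b, Ces5a, Aqp9 and Adgrg2). Cluster 9 was led by Lcn8, 9230110F15Rik and Defb48, cluster 5 by Lypd8 and Defb47, and cluster 20 by Crisp1 and Spint4. Together they held 15.9% of the young and 31.0% of the old library's clustered cells, and 43.7% and 64.6% of all UMIs of those cells. In these clusters lay 97.3 to 99.2% of the UMIs of each of the 8 genes in the young and 97.3 to 98.3% in the old library. For Lcn2 the share was 65.5% and 79.3%, and most of the remainder (32.2% and 17.9%) lay in basal epithelium-like cells.

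The 3 clusters divided the genes into 3 patterns. Lcn8, Lcn9, Cst8 and Adam28 were mainly in cluster 9, where Lcn8 reached 37216 CPM in the young and 38823 CPM in the old library, against 325 and 1000 CPM in cluster 5 and 11.4 and 644 CPM in cluster 20. Lcn9 gave 8192 and 15563 CPM in cluster 9, against 525.55 and 949 CPM in cluster 5. Cst8 gave 4372 and 4714 CPM against 248 and 285 CPM, and Adam28 3659 and 4427 CPM against 57.1 and 115 CPM. Each of these 4 genes was thus more than 10-fold lower in cluster 5 than in cluster 9, in both libraries.

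Lcn10, Cst11, Adam7 and Lcn2 were high in clusters 9 and 5 alike. Adam7 gave 6668 CPM in cluster 9 and 8717 CPM in cluster 5 of the young library, and 7278 and 8555 CPM in the old library. Lcn10 gave 3440 and 2541 CPM in the young and 3363 and 1883 CPM in the old library. Cst11 was higher in cluster 9 (17729 and 18968 CPM) than in cluster 5 (7902 and 6449 CPM). Of these 4 genes, Adam7 alone also kept a level above 1000 CPM in cluster 20, with 1831 CPM in the young and 2593 CPM in the old library.

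Lcn5 had the opposite pattern to its neighbour Lcn8. It was highest in cluster 20, at 9949 CPM in the young and 16462 CPM in the old library, lower in cluster 5 (1110 and 4665 CPM) and lowest in cluster 9 (260 and 240 CPM). The 2 genes start 4832 bases apart, and their promoter windows are printed above.

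Cells of at least 3000 UMIs, each thinned to 3000 UMIs, showed how even these levels were. In cluster 9, the median cell held 107 Lcn8 UMIs in the young library (quartiles 80 and 144) and 113 in the old library (87 and 141), and under 1% of cells had none. In cluster 5, every cell held Adam7, with a median of 25 and 24 UMIs. Lcn5 in cluster 20 was uneven, since 72.8% of 180 young and 46.9% of 360 old cells had no UMI of it. The 15.0% and 28.6% of cells with at least 50 Lcn5 UMIs held 87.1% and 91.6% of its UMIs there, with up to 259 and 301 UMIs in a cell. Cluster 20 therefore mixed cells rich in Lcn5 with cells that had none, while 12.8% and 10.3% of its cells lacked Adam7.

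**Figure D2:**
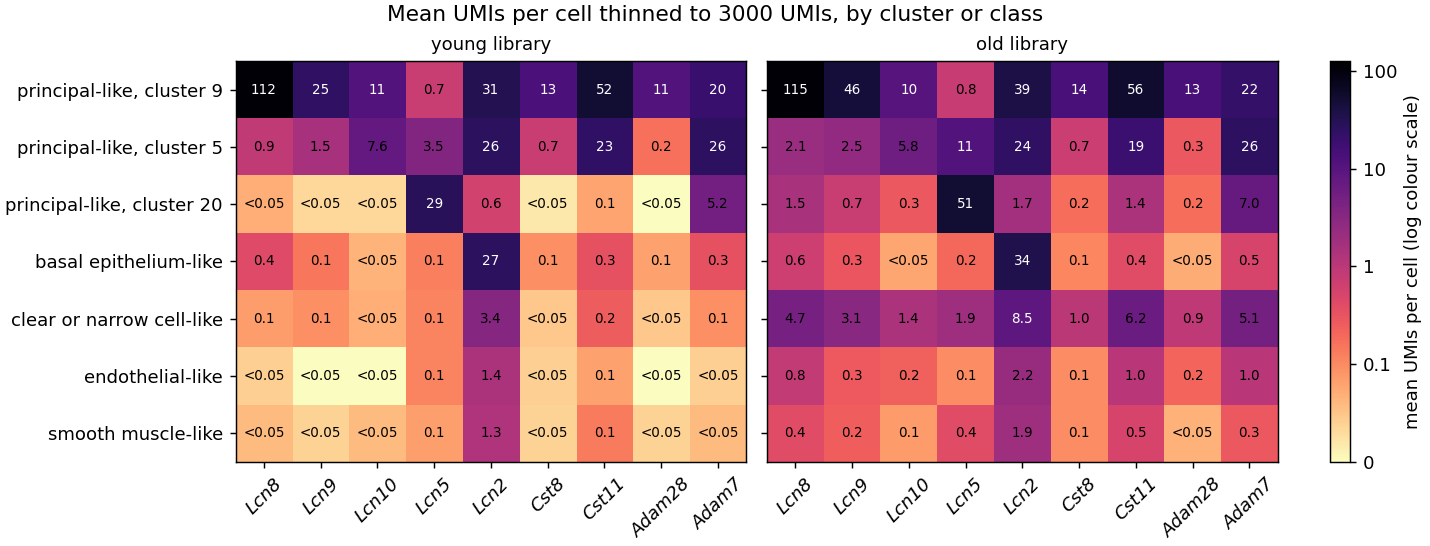
Mean UMIs per cell of the 9 genes after thinning each cell to 3000 UMIs, by principal-like cluster and by other cell class, in the young and the old library, with a log colour scale. Lcn8 averages 112 and 115 UMIs in cluster 9, Lcn5 is highest in cluster 20, and Lcn2 is high in basal epithelium-like cells, where the other genes are below 1.

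Lcn2 was as high in basal epithelium-like cells as in principal-like cells. In the young library it gave 7764 CPM in basal epithelium-like and 7790 CPM in principal-like cells, and in the old library 10569 and 9268 CPM. Cluster 11, a basal epithelium-like cluster led by Slc38a5 and Cdh16, had the highest level of any cluster in both libraries (10830 and 18864 CPM). Of the basal epithelium-like cells thinned to 3000 UMIs, 99.3% and 100% held Lcn2, whereas 6.76% and 10.9% held Lcn5.

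UMIs of these genes were also found in cells that should lack them. In smooth muscle-like cells thinned to 3000 UMIs, which should lack them, Lcn8 was detected in 2.82% of 71 young and 22.0% of 82 old cells, Cst11 in 8.45% and 22.0%, Adam7 in 2.82% and 9.76%, and Lcn2 in 22.5% and 31.7%. Among old library classes of at least 20 cells, the 240 seminal vesicle secretory-like cells came next after principal-like cells for every member but Lcn2. They gave 5130 CPM of Lcn8, with 0.682% of its UMIs, 3807 CPM of Cst11 and 2522 CPM of Adam7. The old library was not the higher one in every class, since Adam7 gave 157 UMIs in 152 T or NK-like cells of the young library and 9 UMIs in 56 of the old library. Young T or NK-like cells gave 373 CPM of Cst11 at this clustering and 160 CPM at a finer one (resolution 2), so such values depend on the clusters. The shares of cells below are to be read against this background, whose source was not tested. The median depth of all cells of at least 3000 UMIs before thinning was 6045 UMIs in the young and 7415 UMIs in the old library.

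Co-detection was taken over all 2171 young and 3537 old cells of at least 3000 UMIs, thinned to 3000. It served to choose the genes and is a description. Lcn2 was detected in 84.5% and 88.9% of these cells, Adam7 in 68.2% and 84.9%, Cst11 in 60.6% and 74.3% and Lcn10 in 55.6% and 68.1%. Lcn5 was detected in 41.0% and 50.8%, Lcn8 in 20.8% and 55.1%, Lcn9 in 25.1% and 52.6%, Cst8 in 22.7% and 47.0% and Adam28 in 17.0% and 43.5%. The 4 genes of the cluster 9 pattern were thus those whose shares differed most between the young and old libraries. Of the 2171 young and 3537 old cells, 249 and 1194 were in cluster 9, 852 and 961 in cluster 5, and 180 and 360 in cluster 20. The shares are therefore those of cells of this depth, not of the whole libraries.

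Cells with Adam28 nearly always held the other genes of its pattern. Of the cells with Adam28, 94.9% in the young and 97.3% in the old library also held Lcn9, 90.5% and 96.2% Cst8, and 84.1% and 96.4% Lcn8, but only 44.6% and 46.5% held Lcn5. Of the cells with Lcn10, 98.9% and 99.5% also held Adam7. The relation was not symmetric, because of the cells with Adam7, 24.1% of the young and 50.9% of the old held Adam28.

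All 9 genes were detected together in 6.22% of the young and 18.9% of the old cells. With the cells called doublets left out, these shares were 6.73% and 19.2%. Of the cells with all 9 genes, 102 of 135 in the young and 525 of 669 in the old library were in cluster 9, and 9 and 84 had been called doublets. No member was detected in 7.74% and 2.06% of cells, and 8 of the 9 in 9.21% and 23.5%. In the young library the most frequent number was 5, in 24.1% of cells. In cluster 9, each member other than Lcn5 was found in 96.8 to 100% of cells in both libraries, and Lcn5 in 43.0% and 45.4%.

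**Figure D3:**
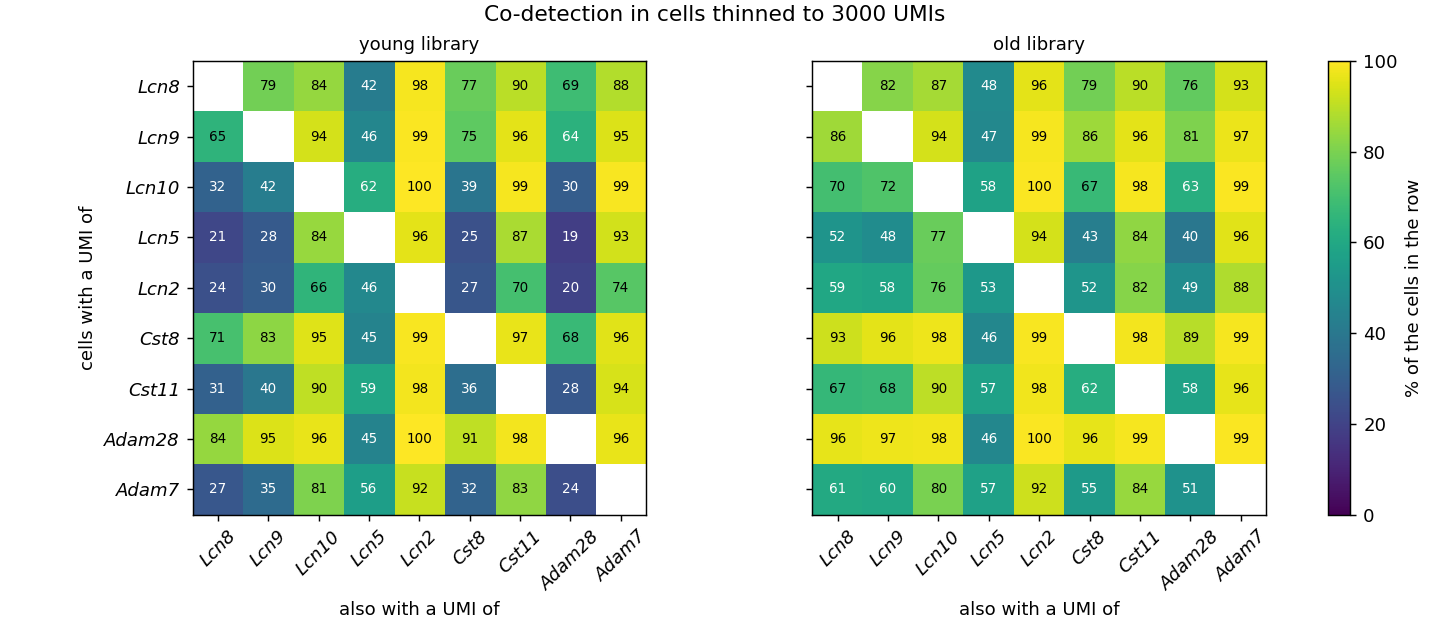
Percentage of the cells with a UMI of the row's gene that also had a UMI of the column's gene, over 2171 young and 3537 old cells thinned to 3000 UMIs. The Lcn5 column is the palest against Lcn8, Lcn9, Cst8 and Adam28, of whose cells 41.8 to 47.8% also held Lcn5, while the Lcn2 column is at 91.7% or more for all rows.

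Over these cells, Pearson correlations of log values between the 4 genes of the cluster 9 pattern ran from 0.87 to 0.96. They were 0.93 in the young and 0.96 in the old library for Lcn8 and Adam28, and 0.92 and 0.96 for Lcn9 and Cst8. Among Lcn10, Cst11 and Adam7 they ran from 0.75 to 0.95, but Lcn2 reached only 0.51 and 0.52 with Adam7 and 0.64 and 0.73 with Lcn10. Some pairs across the patterns were as high, such as Lcn9 and Cst11 (0.63 and 0.80). Between Lcn5 and Lcn8 they were -0.05 and -0.25, and between Lcn5 and Adam7 0.46 and 0.25. The points are 2171 and 3537 cells of 1 library each, which share a library and differ in depth.

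The genes most like each member were sought among 11898 genes by the mean correlation over both libraries. For Lcn8 and Adam28 the closest was Gm5916 (mean r 0.92 for each), and for Lcn9 and Cst8 it was Ly6g5b (0.92 and 0.91). Defb20, a beta-defensin, was closest to Lcn10 (0.90), Cst11 (0.90) and Lcn2 (0.75), and Defb42 to Adam7 (0.89). Spink11 was closest to Lcn5 (0.73), followed by Epp13 and Spag11a. The lists for Lcn10, Cst11, Adam7 and Lcn2 each held Gpx5 among the 5 closest genes.

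The old library had more of every member than the young library, by ratios of CPM from 1.45 for Lcn2 to 6.65 for Lcn9. The ratio was 1.47 for Adam7, 1.51 for Lcn10, 2.04 for Cst11, 2.85 for Lcn5, 3.86 for Cst8, 4.28 for Lcn8 and 4.92 for Adam28. At least 2-fold higher in the old library were 6 of the 9 genes, against 2.65% of 14173 genes with at least 50 UMIs in the pair. At least 2-fold higher in the young library were 0 of the 9, against 5.95% of these genes. The contrast was among those that chose the genes, so nothing is read from these counts, and with 1 library on each side the intervals cover counting error only.

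Cluster 9 made up 267 of 8492 cells (3.14%, exact 95% interval 2.78 to 3.54) of the young and 1239 of 8449 cells (14.7%, 13.9 to 15.4) of the old library. Cluster 5 made up 10.3% and 11.6%, and cluster 20 2.41% and 4.75%. Within cluster 9 the old over young ratio was 1.04 for Lcn8, 1.08 for Cst8, 1.07 for Cst11, 0.978 for Lcn10, 1.09 for Adam7, 1.21 for Adam28, 1.25 for Lcn2 and 0.923 for Lcn5. Lcn9 kept a ratio of 1.90 there (8192 against 15563 CPM, interval 1.87 to 1.93), the highest of the 9 genes. The whole-library ratio of 4.28 for Lcn8 thus stood beside a ratio near 1 in the cluster that held most of its UMIs and a larger share of cells in that cluster.

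Within cluster 5 the ratios ran from 0.741 for Lcn10 to 4.203 for Lcn5, and Lcn5, Lcn8 and Adam28 were at least 2-fold higher in the old library. The share of all genes past 2-fold within a cluster is not given here, so nothing is read from how many members passed. Within cluster 20 Lcn5 had a ratio of 1.65 and Adam7 of 1.42. The 7 other genes had ratios from 4.06 for Lcn2 to 116 for Lcn9, the latter on 4 young UMIs (interval 45.2 to 427). Those 7 were low there in the young library (2.02 to 177 CPM). In the old library they gave 81.5 to 718 CPM in cluster 20, and Lcn8 was detected in 23.6% of its cells, against 22.0% of smooth muscle-like cells. The part of this background in these ratios was not tested.

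**Figure D4:**
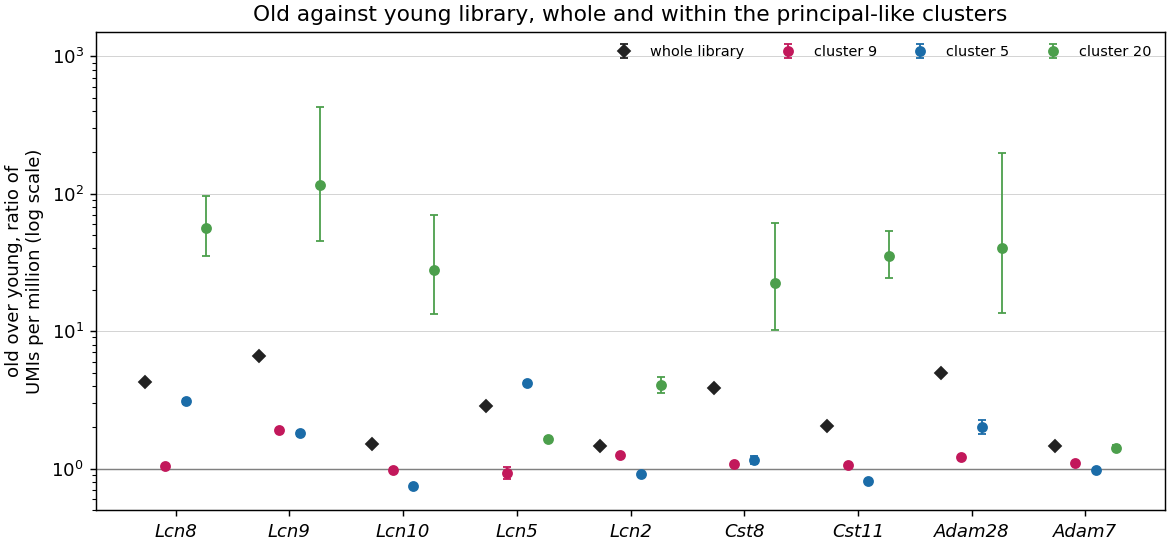
Old over young ratio of CPM for each gene on a log axis, over the whole library (diamonds) and within the principal-like clusters 9, 5 and 20 (circles), with 95% counting intervals. Ratios within cluster 9 are between 0.923 and 1.90, while the whole-library ratios run from 1.45 to 6.65.

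Outside the young and old libraries, the class with the largest share of Lcn2 UMIs, as clusters were named here, differed between the sets of mice. Seminal vesicle secretory-like cells held the largest share in the aging pool (32.2%), unnamed cells in the diet pool (67.3%) and basal epithelium-like cells in the diet single libraries. In the diet single libraries it was highest in basal epithelium-like cells (2362 ± 244 CPM, SD, n = 3 mice), which held 56.2% of its UMIs, against 19.3 ± 2.34 CPM in seminal vesicle secretory-like cells (SD, n = 3). In the aging pool lymphatic endothelial-like cells gave 1536 to 2460 CPM in the 4 mice with at least 10 such cells. In the diet pool 5031 of 8507 UMIs came from 831 cells of cluster 16, which was left unnamed and was led by Psca, Krt17 and Krt15, at 987 CPM. Of the marker lists, cluster 16 best matched basal epithelium (mean log2 ratio 6.08). It stayed unnamed because bladder urothelium came next at 4.35, above the limit of 0.7 of the best. The unnamed share of the diet pool is thus not set apart from basal epithelium by its markers. The same cluster gave 859 CPM in 160 cells of the aging pool. Lcn2 was thus at similar levels per UMI in cluster 16 of both pools, which held different numbers of these cells.

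Adam28 in the pools was found in the same cluster 16, with 67 of its UMIs in the diet pool (13.1 CPM) and 15 in the aging pool (10.7 CPM), and in the prostate luminal-like cluster 22, with 29 and 18 UMIs (9.52 and 2.51 CPM). In the diet single libraries it gave 1 UMI in all. The clustering also placed 33 cells of 17 of the other mice in the principal-like clusters. These held 319 UMIs of Lcn2, 12 of Adam7 and 1 of Cst8, and 0 of the 6 other members, and the cells with Adam7 and Cst8 had no UMI of Gpx5.

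The comparisons among the 21 other mice were not used to choose the genes and were tested with edgeR's quasi-likelihood test on UMIs summed per mouse. Between the aging pool (93.8 to 351 CPM, mean 166 ± 72.3, SD, n = 10) and the diet pool (156 to 347 CPM, mean 219 ± 65.9, SD, n = 8) Lcn2 overlapped widely. Its log2 difference was -0.21 (SE 0.21, edgeR adjusted p = 0.466), and it was the only member past the filter on low counts, so 0 of 1 member was called where 30.0% of 11216 genes were. Of those calls 1626 were higher and 1741 lower in the aging pool, a split that became 488 and 2788 when libraries were scaled by their totals alone.

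Adam28 was lower in the aging pool (0 to 1.62 CPM, mean 0.665 ± 0.478, SD, n = 10) than in the diet pool (0.9496 to 5.59 CPM, mean 3.096 ± 1.53, SD, n = 8), with 1 diet pool mouse, on caloric restriction, inside the range of the aging pool. It did not pass the filter. In the fit without the filter its log2 difference was -1.88 (SE 0.44, edgeR adjusted p = 0.0048). In that fit Adam7 also passed, with a log2 difference of 2.77 (SE 0.96, edgeR adjusted p = 0.0494). Adam28 and Adam7 were the 2 of 7 members called, against 17.9% of 21399 genes. Of the 19 Adam7 UMIs in the aging pool, 12 came from 1 cell, and the diet pool held 1 UMI. The difference without that cell was not tested. Strain, pool and age cannot be told apart in this comparison, and cluster 16 held 160 cells in the aging and 831 in the diet pool.

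Age was compared within the aging pool. Lcn2 was at 93.8 and 212 CPM at 3 months, 129 and 167 CPM at 20 months, 148 and 157 CPM at 20 months with rapamycin, 119 and 351 CPM at 28 months, and 138 and 143 CPM at 28 months with rapamycin. The 2 mice of 3 months spanned all of the others but the 28-month mouse at 351 CPM. The log2 difference of 20 and 28 months to 3 months was 0.05 (SE 0.37, edgeR adjusted p = 0.975). It was -0.32 without the lower of the 3-month mice and -0.28 without the 28-month mouse at 351 CPM. No gene was called in this comparison (0% of 12207, 702 at an unadjusted p under 0.05, and 6 called by DESeq2), nor was the 1 member tested.

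Diets were compared with the pool or the single library as a block. Lcn2 was at 245 and 347 CPM in the 2 pool mice on control diet and 55.8 CPM in the single control library, at 171, 237 and 56.6 CPM on high fat diet, and at 156, 178 and 55.9 CPM on low protein diet. The pool mice on control diet were the highest of these and the 3 single libraries hardly differed. The log2 difference was -0.33 on high fat diet (SE 0.22, edgeR adjusted p = 1.00) and -0.48 on low protein diet (SE 0.25, edgeR adjusted p = 1.00). Adam28 was at 2.06 and 3.26 CPM in the control pool mice, 3.67 and 5.59 CPM on high fat and 2.38 and 4.71 CPM on low protein diet, with log2 differences of 0.64 (SE 0.49) and 0.20 (SE 0.61) and edgeR adjusted p = 1.00 in both. In these comparisons 0% of 12256 and 0% of 12106 genes were called, and 0 of 2 members in each. At an unadjusted p under 0.05 there were 232 and 237 genes, and DESeq2 called 0 and 5. Both share their control mice.

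On caloric restriction, which was given in the diet pool alone, Lcn2 was at 160 and 260 CPM against 245 and 347 CPM in the control mice of the same pool, so that the groups overlapped. After TMM scaling the log2 difference was -0.98 (SE 0.29, edgeR unadjusted p = 0.0134 in an n of 2 and 2, adjusted p = 0.351). With total counts in place of TMM the median of all genes moved to 0.45 and Lcn2 to -0.50. Without the filter on low counts the adjusted p was 0.026, and over all alternatives it ran from 0.026 to 0.761. Adam28 was at 0.9496 and 2.15 CPM against 2.06 and 3.26 CPM (log2 difference -1.20, SE 0.65, edgeR adjusted p = 0.670), and the difference ran from -2.24 without the first to -0.72 without the second restricted mouse. The main fit called 0% of 12195 genes and 0 of 2 members, with 1120 genes at an unadjusted p under 0.05 and 95 called by DESeq2. The fit without the filter called 3.24% of 18622 genes, and 1 of 4 members tested, Lcn2.

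**Figure D5:**
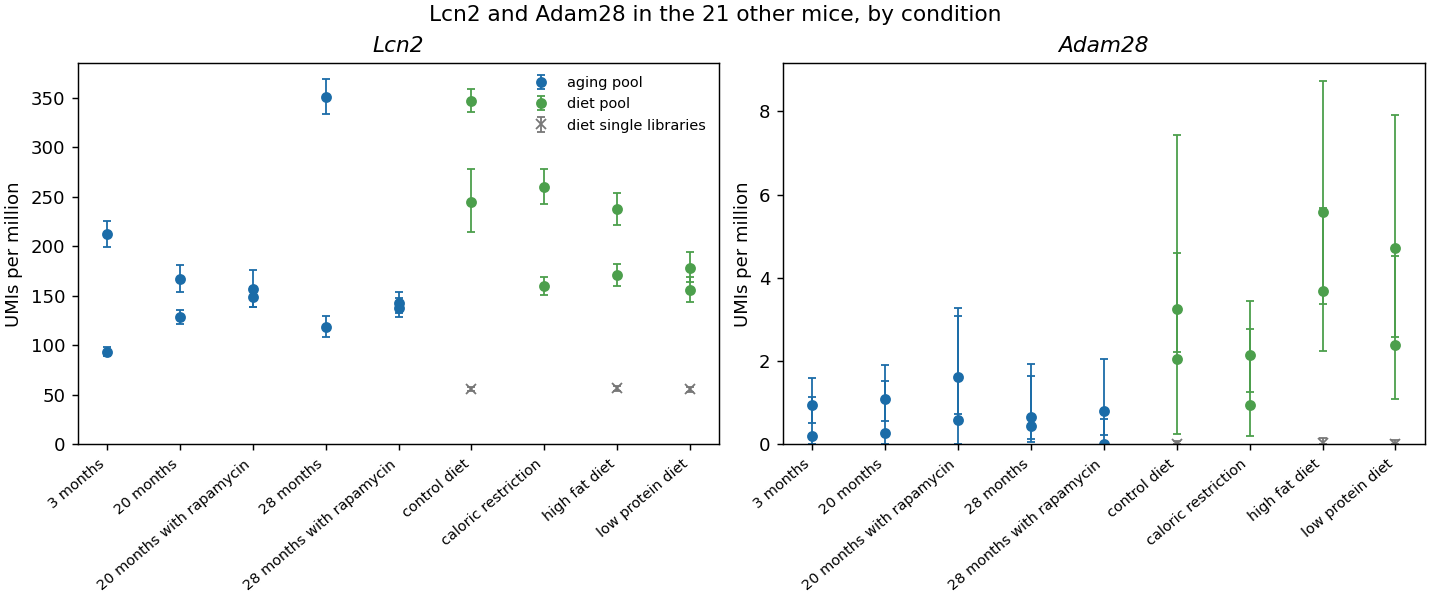
Lcn2 and Adam28 in CPM in each of the 21 other mice, by condition, with exact 95% Poisson intervals. The 2 mice of a condition are often further apart than conditions are, Lcn2 is at 55.8 to 56.6 CPM in the 3 diet single libraries (crosses), and Adam28 is mostly higher in the diet pool than in the aging pool.

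Other genes of the same families were taken from fixed lists, to see how far the pattern of the 9 extended. Of 19 other lipocalin-type genes present in both references, 12 had at least 50 UMIs. Of these 7 were above all 21 other mice in both the young and the old library and 2 below, with a median log2 difference of 1.98. Of 14 other cystatins 7 had at least 50 UMIs, with 4 above, none below and a median of 1.26. Of 32 other Adams 15 had at least 50 UMIs, with 2 above, none below and a median of 0.53. Over all 15957 genes, 5533 were above and 154 below, with a median of 0.76.

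Among the lipocalins, Lcn6, which starts between Lcn5 and Lcn10, gave 1703 and 2899 CPM in the young and old library and 5 UMIs in the other mice. Lcn12 gave 277 and 243 CPM and 10 UMIs. Ptgds, a lipocalin-type prostaglandin D synthase, gave 1783 and 1187 CPM against 1.58 to 35.5 CPM in the others. Obp2a (36.3 and 65.1 CPM) and Mup6 (14.7 and 45.2 CPM) were also above all others. Orm3, an orosomucoid, was below all others (0.242 and 0.356 CPM against 5.06 to 96.0 CPM). Apod and Rbp4 lay within the range of the others in at least 1 of the libraries.

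Among the cystatins, Cst12, which starts between Cst11 and Cst8, gave 642 and 1265 CPM and 2 UMIs in the other mice. Cst6 gave 47.4 and 34.9 CPM, Fetub 7.46 and 10.8 CPM and the intracellular inhibitor Cstb 583 and 500 CPM, all above the others. Cst3, the widely made cystatin C, overlapped, with 3006 and 2313 CPM against 414 to 3851 CPM. Among the Adams, Adam10, a widely expressed sheddase, gave 83.2 and 92.5 CPM against 11.2 to 49.4 CPM, while Adam9, Adam15, Adam17 and Adam23 lay within the range of the others in at least 1 of the libraries. Adamdec1, named here after its values were seen because it starts between Adam7 and Adam28, gave 0.403 and 1.26 CPM against 0 to 1.59 CPM in the others.

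Between the pools, 6 of 16 related genes tested were called, beside the 30.0% of all genes called in the same fit. Ptgds (log2 difference 1.45, edgeR adjusted p = 0.0204), Cst6 (0.69, adjusted p = 0.0393) and Adam9 (0.31, adjusted p = 0.0182) were higher in the aging pool. Rbp4 (-2.07, adjusted p = 0.000265), Adam23 (-0.64, adjusted p = 0.0060) and Cstb (-0.36, adjusted p = 0.0340) were lower. None of the related genes tested was called by edgeR in the age and diet comparisons.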

How the data were processed

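Single-cell RNA-seq of 23 mice in 7 libraries was used. The authors deposited UMI counts per gene and cell, made with Cell Ranger (6.0.1 for the pools and 3.1.0 for the single-mouse libraries, per the file headers) on mm10, and the pools were split into mice by their tags. The condition of a pool mouse was read from the names of the deposited counts of each mouse, matched to the study's list of animals. The 9 genes, the lists and the tests were chosen with earlier results of these data known.

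The filter kept 40342 cells (minimum 500 genes and 200 UMIs, maximum 10% of UMIs mitochondrial), and levels are CPM over 30406 shared genes. For clustering, 1753 called doublets were left out, the cells with the highest doublet scores in each library. Their number was set beforehand from the numbers of cells and mice in the library, so it does not show whether the scoring worked. It was 20 of 5014 cells in the aging pool and 28 of 5312 cells in the diet pool. Clustering used 2000 variable genes without the 9 members, 30 principal components and the Leiden method at resolution 1 (scanpy 1.11.5, leidenalg 0.10.2, Python 3.11.15). Clusters were named from 18 marker lists. A class of a mouse needed 10 cells.

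For co-detection, cells of at least 3000 UMIs were thinned to 3000, which left out 6993 young and 5576 old cells. The spread of UMIs over cells within clusters used a separate random thinning, so its shares of cells at 0 differ slightly from the shares with a UMI. UMIs were summed per mouse and tested with edgeR 4.0.16 (quasi-likelihood, TMM, filterByExpr, Benjamini-Hochberg over all genes tested, threshold 0.05), with rapamycin as a covariate for age and the pool or single library as a block for high fat and low protein diet. DESeq2 1.42.0, other filters, scalings and left-out mice were alternatives. The code was tested on simulated data. Intervals at 95% (exact Poisson or binomial) cover counting error only. Where 2 mice share a condition, nothing else pairs them, and p-values measure the spread between these mice. Named genes are all 9 members, and related genes of the lists that reached 10 CPM in the young or old library or were tested.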

Additional observations from a re-analysis of the deposited data

Results flagged for a closer look

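In the aging pool, Lcn2 was at 351 CPM in the first 28-month mouse, far from the nearest of the other 9 mice at 212 CPM. The gap was 0.540 of the range over the 10 mice, above Dixon's 95% critical value of 0.466. Of 8 such checks of Lcn2 and Adam28 this was the only one past its limit, and by chance about 5% of groups would be. In this mouse Lcn2 was at 394 CPM in seminal vesicle secretory-like cells and 553 CPM in fibroblast-like cells, each the highest of the pool.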

How the results depend on the processing

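All 9 genes stayed above all 21 other mice with every deposited barcode, without the mitochondrial limit and without the seminal vesicle secretory genes in the totals. Within single clusters, chosen after seeing the data, 3 (cluster 5), 0 (cluster 9) and 7 (cluster 20) members were at least 2-fold higher in the old library, against 6 in whole libraries. The share of all genes past 2-fold within each cluster is not given, so nothing is read from these counts. Of the cells of at least 3000 UMIs, 10.7% of the young and 31.0% of the old held all 9 genes without thinning. Of the cells of at least 5000 UMIs thinned to 5000, 11.6% and 29.3% did. When 2 UMIs of each gene were required in cells of at least 3000 UMIs, the shares were 2.07% and 6.81%.

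Genes called for age numbered 6 with DESeq2, 1 without the filter, 1 with library totals in place of TMM, and 0 to 1 with a mouse left out (1 without the first 28-month mouse). For high fat diet there were 88 without the filter and 0 to 8 with a mouse left out (8 and 3 without the first and the second control mouse). For low protein diet there were 5 with DESeq2, 75 without the filter and 0 to 3 with a mouse left out (3 without the second control and 2 without the second low protein mouse). For caloric restriction there were 95 with DESeq2, 603 without the filter, 5 with library totals and 0 to 59 with a mouse left out (59 without the second restricted and 2 without the second control mouse, a lone sample then being assumed to vary like the other group). Pool calls ran from 3276 to 3831. Lcn2 on caloric restriction passed without the filter (-0.98, edgeR adjusted p = 0.026) and ran from -1.28 to -0.61 with a mouse left out. Lcn2 with age ran from -0.32 to 0.54, with -0.32 without the second 3-month mouse and -0.28 without the first 28-month mouse. Adam28 on low protein diet ran from -0.39 to 0.68, with -0.39 without the first low protein mouse of the pool. The cause was not tested. On high fat diet Lcn2 ran from -0.53 to -0.04 (the latter without the first control mouse) and Adam28 from 0.37 to 1.43 (the latter without that mouse), and Lcn2 on low protein diet from -0.82 to -0.15 (the latter without that mouse), none of them called. No paired analysis was possible because the labels give the mice of a pool no replicate numbers, and the block of the diet fits is the pool or single library, not a pair of mice.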
